A study of Mus musculus with 20 samples.

Results

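The genes described here make cholesterol or hold its synthesis in check. They were chosen by name, as 8 genes of sterol metabolism, and read as gene sums of the deposited transcript values. A gene of the annotation carried 7 of the 8 names, out of 36611 genes in all: Idi1, Fdps, Fdft1, Sqle, Lss and Cyp51, which encode enzymes of the pathway, and Insig1, which encodes a sterol-dependent regulator. Hmgcs1, the gene of HMG-CoA synthase, was not analysed here. RNA had been sequenced from iWAT, the white fat under the skin of the groin, in 4 groups of 5 female mice. All mice were 6 months old, carried Tmem120a alleles whose exons 2 and 3 are flanked by loxP sites, and had eaten for 15 weeks a diet with 10.5% fat (low-fat diet, LFD) or with 58% fat (high-fat diet, HFD). Ad-Tmem120a-/- mice (knockout) also carried Cre driven by the adiponectin promoter, which acts in mature adipocytes, whereas control littermates did not. The loxP line came from Taconic C57BL/6 N Tac embryonic stem cells, and the Cre line was on a C57BL/6 J background. iWAT holds other cells in which the gene stays intact.

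Cholesterol is built from acetyl-CoA. Early enzymes make isoprenoid diphosphates, squalene synthase commits them to sterols, and a ring-closing step gives lanosterol, which later enzymes trim to cholesterol. When sterol in the endoplasmic reticulum is low, the complex of Scap and SREBP2 (encoded by Srebf2) leaves for the Golgi, where SREBP2 is cut into a transcription factor that switches on the whole pathway and Insig1. INSIG proteins hold the complex back when sterol is plentiful. White adipocytes are known for storing cholesterol, much of it taken up from lipoproteins, and for making fatty acids under the related factor SREBP1 (encoded by Srebf1).

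Libraries held between 54605101 and 92387737 estimated counts. Pearson correlation of log2(TPM + 1) between libraries of one group ran from 0.874 to 0.967, where TPM is the share of a library given to a transcript after correction for its length, on a fixed total. The labels do not state that each library came from a separate mouse, and p-values measure the spread between these libraries. On LFD Tmem120a averaged 85.4 ± 28.4 TPM in controls against 41.5 ± 21.9 TPM in knockouts, and on HFD 119 ± 44.5 against 51.6 ± 26.7 TPM (SD, n = 5 each). Over both diets its log2 fold change in knockouts was -1.64 ± 0.24 (edgeR adjusted p = 0.00452). DESeq2 called this too (adjusted p = 5.23e-10), but limma on log2(TPM + 1) (0.161) and edgeR with length offsets (0.134) did not. On LFD the value was -1.61 ± 0.34 (unadjusted p = 0.000583 and adjusted p = 0.929 by edgeR). On HFD the value was -1.67 ± 0.29 (unadjusted p = 8.63e-05 and adjusted p = 0.173 by edgeR). Within each diet DESeq2 called Tmem120a (adjusted p = 0.00250 and 3.17e-06) and limma did not. Reads outside the deleted exons count towards these sums. In 2 knockout libraries, replicate 7 on LFD with 74.0 TPM and replicate 21 on HFD with 89.7 TPM, Tmem120a lay within the range of the controls on the same diet, so results are also given without both where this changed a call. Summed TPM of 8 white adipocyte markers (Adipoq, Plin1, Cidec, Fabp4, Lep, Lipe, Pnpla2 and Cd36, none at 0 in all libraries) ran from 16783 to 22655 in control mice on LFD and from 23202 to 31720 on HFD, without overlap (two-sided exact permutation test p = 0.00794). In knockout mice the sums ran from 14593 to 20352 on LFD and from 19813 to 30762 on HFD (exact p = 0.0159). Fabp4 dominated these sums, with a mean of 15515 TPM in control mice on LFD. Of the 8 markers edgeR called 1 higher on HFD in control mice and 1 in knockout mice, and none lower. That compares with 4.42% and 4.55% of all genes tested called higher. Mean Pnpla2 was 469 TPM on LFD and 411 TPM on HFD in control mice. The summed TPM of 7 skeletal muscle markers (Acta1, Ckm, Tnnt3, Tnni2, Mylpf, Myh1 and Myh4) ran from 6.92 to 2719 and from 12.0 to 814 on LFD in control and knockout mice. On HFD it ran from 5.63 to 43.7 in control and from 33.6 to 1204 in knockout mice. This difference between genotypes had exact p = 0.0159. In control mice edgeR called 6 of the 7 lower on HFD, where 4.9% of all genes tested were called lower. For the same comparison DESeq2 called 4 of the 7 and limma 1, and the summed TPM gave exact p = 0.0635. Sums for mammary and skin epithelium, sebaceous gland, lymphocytes, macrophages, brown and beige adipocytes and Schwann cells gave exact p of at least 0.0714 in each comparison of 2 groups. Single genes moved more than these sums: the 5 brown and beige markers (Ucp1, Cidea, Cox8b, Dio2 and Elovl3) had a median log2 fold change of -2.58 on HFD in control mice and -0.11 in knockout mice. In control mice edgeR called 2 of them lower (Cidea and Elovl3), DESeq2 3 and limma 3, and mean Ucp1 was 68.0 TPM on LFD and 8.75 TPM on HFD. In the interaction 3 of the 5 had an unadjusted p (edgeR) under 0.05 and none was called. Of the 8 mammary and skin markers 2 (Epcam and Elf5) were called lower in control mice by edgeR. The part that these cell type markers play in the differences between groups was not tested. In whole tissue, fewer cells of a type and less RNA per cell cannot be told apart.

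The first question was whether the diet moved the sterol genes in the presence and absence of Tmem120a in adipocytes. With all 20 libraries and genotype as a term, 4 of the 7 genes rose on HFD: Insig1 (log2 fold change 1.26 ± 0.22 SE), Cyp51 (0.74 ± 0.15), Lss (0.62 ± 0.21) and Idi1 (0.40 ± 0.16). The other 3 had positive values that did not pass the test, and none fell. A call was an adjusted p (edgeR quasi-likelihood test, Benjamini-Hochberg over every gene averaging 0.5 TPM or more) under 0.1, the limit of the study's methods. Among all 15574 genes tested, 12.5% were called higher and 12.7% lower on HFD. The median log2 fold change was 0.59 over the 7 genes and -0.03 over all genes tested. Ratios of TPM ran higher than these fitted values: limma on log2(TPM + 1) put the median of all genes at 0.10 over both genotypes and 0.13 in control mice, against -0.03 and -0.04 with edgeR. Within control mice 2 of the 7 genes rose, Lss and Cyp51, where 4.42% of all 15311 genes were called higher and 4.9% lower. Within knockout mice Insig1 and Cyp51 rose, where 4.55% of 15705 genes were called higher and 4.85% lower. Both control calls were lost without control LFD replicate 2, 3 or 5 or control HFD replicate 11, 12 or 15, each of which left 0 of the 7 genes called, while leaving out control LFD replicate 4 gave 4. In knockout mice 1 gene remained called without LFD replicate 6 or 8 or HFD replicate 21. The plot of TPM by library shows all 7 genes.

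**Figure D1:**
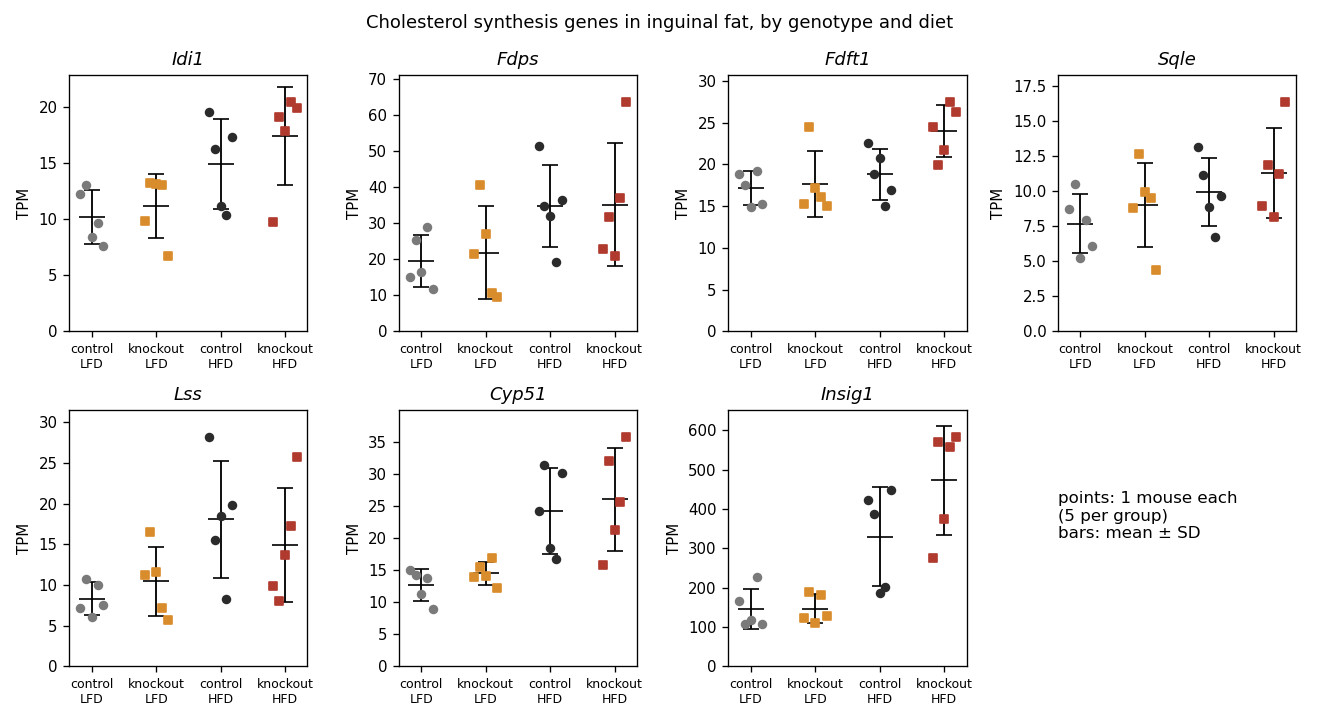
TPM of the 7 genes in iWAT, 1 point per library (5 per group), with the group mean ± SD as bars; the vertical axis is linear and starts at 0. Cyp51 on HFD in control mice lies wholly above LFD (lowest 16.7 against highest 15.0 TPM), and so does Insig1 in knockout mice (276 against 190.0 TPM).

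TPM also allows levels to be compared between genes. By gene sums, Insig1 was the most abundant of the 7 in each group, Fdps the next and Sqle the least. The places of Idi1 and Lss are uncertain. Idi1 shares most of its sequence with a pseudogene. Coding transcripts of Lss alone had group means of 1.97 to 3.24 TPM, below Sqle in each group. In control mice on LFD the means were 145 ± 51.5 TPM for Insig1, 19.6 ± 7.30 for Fdps, 17.2 ± 2.01 for Fdft1, 12.6 ± 2.48 for Cyp51, 10.2 ± 2.37 for Idi1, 8.30 ± 2.0 for Lss and 7.69 ± 2.10 for Sqle (SD, n = 5). Below Insig1, the neighbours in this order differed by less than the larger of their SDs, except Fdft1 and Cyp51. The order from Fdft1 to Lss changed on HFD, where Cyp51 ranked next after Fdps in both genotypes.

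Idi1 (ENSMUSG00000058258, NCBIM37 chr13:8884852-8891641, plus strand) encodes the isomerase that supplies both building units from which longer isoprenoids are joined. In control mice it measured 12.2, 13, 8.42, 9.64 and 7.59 TPM on LFD and 19.5, 16.2, 11.2, 10.4 and 17.3 TPM on HFD. In knockout mice the values were 9.80, 13.2, 13.1, 13 and 6.71 TPM on LFD and 9.74, 19, 17.8, 20.4 and 19.9 TPM on HFD. On HFD, 4 of 5 knockout libraries lay above every knockout library on LFD, and replicate 17 with 9.74 TPM lay among the LFD values. The log2 fold change on HFD was 0.31 ± 0.21 in control mice (edgeR adjusted p = 0.460) and 0.48 ± 0.23 in knockout mice (adjusted p = 0.265), and neither passed the test. Over both genotypes it was 0.40 ± 0.16 (edgeR adjusted p = 0.0857). This call was lost without both knockout libraries in the control range of Tmem120a (edgeR adjusted p = 0.139) and in 12 of the 20 fits that left out 1 library (edgeR adjusted p up to 0.141). Those libraries were control LFD replicates 3, 4 and 5, knockout LFD replicates 6 and 10, control HFD replicates 11, 12 and 15, and knockout HFD replicates 18, 19, 20 and 21. The level of Idi1 is uncertain. Of its distinct 31-base words, 84.5% also occur in the pseudogene Gm13502 (chr2:53553406-53555881, minus strand), which was given a mean of 49.9 TPM, more than Idi1 itself. When the reads of both were added, the pooled log2 fold change was 0.37 (edgeR adjusted p = 0.0669), an alternative added after the values were seen. Gm13502 alone gave 0.35 ± 0.15 (edgeR adjusted p = 0.118).

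Fdps (ENSMUSG00000059743, chr3:88897514-88905881, minus strand) encodes farnesyl diphosphate synthase, whose product feeds sterols, dolichol and protein prenylation. Values in control mice were 15.0, 25.4, 16.6, 29.1 and 11.8 TPM on LFD and 51.4, 34.8, 31.9, 19.3 and 36.6 TPM on HFD. In knockout mice they were 21.5, 40.7, 27.1, 10.5 and 9.47 TPM on LFD and 22.9, 31.7, 20.9, 36.9 and 63.6 TPM on HFD. The groups overlapped in both genotypes, and the knockout replicates 7 and 21, those with the most Tmem120a, held the highest Fdps of their groups. The log2 fold change was 0.59 ± 0.29 in control (edgeR adjusted p = 0.277) and 0.60 ± 0.36 in knockout mice (adjusted p = 0.407). Without 1 library the control value ran from 0.41 (without HFD replicate 11) to 0.82 (without LFD replicate 4, adjusted p = 0.0972 by edgeR), and the knockout value from 0.34 (without HFD replicate 21) to 0.90 (without LFD replicate 7). Over both genotypes it reached 0.59 ± 0.25 with an adjusted p of 0.101 (edgeR), just outside the limit. Without both knockout libraries in the control range of Tmem120a it was called (0.61, edgeR adjusted p = 0.0688). DESeq2 (adjusted p = 0.0566) and limma on log2(TPM + 1) (0.0330) called it. So did edgeR with other scaling (adjusted p = 0.0940), no filter (0.0924), length offsets (0.0951) or the newer quasi-likelihood method (0.0900). The edgeR fits without control LFD replicate 4, knockout LFD replicate 7, control HFD replicate 14 or knockout HFD replicate 17 or 19 called it too (adjusted p of 0.0326 to 0.0791). In the other fits that left out 1 library the edgeR adjusted p ran up to 0.209. Processed copies share 70.7% of the 31-base words of Fdps, but Gm3571 and Gm8163, which hold them, were given at most 0.677 TPM and 0 TPM.

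Fdft1 (ENSMUSG00000021273, chr14:63763990-63796630, minus strand), squalene synthase, and Sqle (ENSMUSG00000022351, chr15:59146632-59162747, plus strand), squalene epoxidase and a rate-limiting enzyme of the sterol branch, moved least. Fdft1 ranged from 14.9 to 19.2 TPM in control mice on LFD and from 15.0 to 22.6 TPM on HFD. In knockout mice the ranges were 15.1 to 24.5 TPM on LFD and 19.99 to 27.4 TPM on HFD. A pseudogene, Gm6781, shares 18.1% of the 31-base words of Fdft1 and was given at most 0.608 TPM. The log2 fold change of Fdft1 on HFD was -0.08 ± 0.13 in control mice (edgeR adjusted p = 0.779), a sign that turned to 0.12 with limma on log2(TPM + 1). In knockout mice it was 0.34 ± 0.13 (edgeR adjusted p = 0.160), and without replicate 7 on LFD, whose 24.5 TPM stood above the others, 0.43 (adjusted p = 0.0748). Sqle ranged from 5.22 to 10.5 TPM and from 6.73 to 13.2 TPM in control mice, and from 4.38 to 12.6 TPM and from 8.18 to 16.3 TPM in knockout mice, on LFD and HFD. Its groups overlapped throughout, and the pooled log2 fold change was 0.21 ± 0.15 (edgeR adjusted p = 0.345, with an approximate 95% interval from -0.07 to 0.50).

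Lss (ENSMUSG00000033105, chr10:75994333-76019883, plus strand) encodes lanosterol synthase, which closes the sterol rings. In control mice it measured 7.17, 10.8, 6.00, 9.99 and 7.59 TPM on LFD and 28.2, 15.5, 18.5, 8.33 and 19.8 TPM on HFD. In knockout mice the values were 11.3, 16.5, 11.6, 7.19 and 5.73 TPM on LFD and 9.84, 7.98, 13.6, 17.3 and 25.7 TPM on HFD. In control mice 4 of 5 HFD libraries exceeded every LFD library, whereas in knockout mice only 2 did. The log2 fold change was 0.79 ± 0.23 in control mice (edgeR adjusted p = 0.0714), a call lost in 6 of the 10 fits that left out 1 library (up to 0.158) and in one fit of the 4 groups (0.123), and 0.45 ± 0.31 in knockout mice (adjusted p = 0.471). Most of the TPM of Lss was not assigned to its coding transcripts. Of its TPM, 54.4% was assigned to one annotated retained-intron transcript, Lss-002, 77.3% to retained-intron transcripts together and 18.5% to its 2 coding transcripts. Lss-002 averaged 4.73 ± 1.31 TPM on LFD and 10.2 ± 3.47 TPM on HFD in control mice (exact permutation test p = 0.00794). The main coding transcript, Lss-001, averaged 1.44 ± 1.22 and 2.26 ± 1.97 TPM in the same groups (exact p = 0.468). With coding transcripts alone Lss was not called in control mice (log2 fold change 0.36, edgeR adjusted p = 0.809) or over both genotypes (0.57, adjusted p = 0.654).

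Cyp51 (ENSMUSG00000001467, chr5:4081145-4104746, minus strand) encodes lanosterol demethylase, the first trimming step after ring closure. Control mice on LFD measured 15.0, 14.1, 11.3, 13.7 and 8.93 TPM, and control mice on HFD 24.2, 31.4, 18.4, 16.7 and 30.2 TPM. Knockout mice measured 13.9, 15.5, 14, 16.8 and 12.2 TPM on LFD and 15.7, 31.9, 21.2, 25.6 and 35.7 TPM on HFD. The diets did not overlap in control mice, as for 8.32% of all genes tested (higher on HFD), and in knockout mice replicate 17 alone overlapped the LFD range. The log2 fold change was 0.73 in each genotype, with SE 0.22 and adjusted p = 0.0828 in control and SE 0.19 and adjusted p = 0.0441 in knockout mice (edgeR). The control call was lost in 6 of 10 edgeR fits without 1 library (adjusted p up to 0.188). The knockout call was lost without LFD replicate 6 or 8 or HFD replicate 21 (edgeR adjusted p up to 0.122), and without replicates 7 and 21 together (log2 fold change 0.60, adjusted p = 0.175). Over both genotypes the value was 0.74 ± 0.15 (edgeR adjusted p = 0.00135), called in each fit that left out 1 library. The coding transcript held 98.04% of the TPM of the gene.

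Insig1 (ENSMUSG00000045294, chr5:28397952-28405201, plus strand) makes no sterol. Its protein retains Scap and SREBP2 in the endoplasmic reticulum, and its gene is itself a target of SREBPs. In control mice it measured 165, 107, 118, 227 and 108 TPM on LFD and 424, 387, 185, 201 and 449 TPM on HFD. In knockout mice the values were 122, 190.0, 111, 181 and 128 TPM on LFD and 276, 571, 376, 558 and 583 TPM on HFD. All 5 knockout libraries on HFD exceeded all 5 on LFD, as for 5.01% of genes tested (higher on HFD), whereas in control mice 2 HFD libraries lay within the LFD range. The log2 fold change was 0.95 ± 0.33 in control mice (edgeR adjusted p = 0.121) and 1.57 ± 0.23 in knockout mice (adjusted p = 0.00352). The control value was called by DESeq2 (adjusted p = 0.0253), by limma (0.0462), in one edgeR fit of the 4 groups (0.0664) and by edgeR without control LFD replicate 4 (0.0410) or control HFD replicate 13 (0.0922). The knockout call held in each fit that left out 1 library (log2 fold change 1.45 to 1.70). Insig1 has 1 annotated transcript and shares none of its 31-base words with another gene.

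Promoter sequence was at hand for 4 of the 7 genes (RefSeq, assembly GRCm38.p6, another build than that of the deposited values), and these are the 4 that were called over both genotypes. The 250 bases before each start are printed 5′ to 3′ on the strand of the gene, to show where the letters known as binding sites of SREBPs and of NF-Y, a factor that works with them, occur in these windows. They lie at chr5:4104698-4104947 (minus strand) for Cyp51, chr5:28071162-28071411 (plus) for Insig1, chr10:76531355-76531604 (plus) for Lss and chr13:8885356-8885605 (plus) for Idi1. Capitals mark TCACCNCA, a sterol regulatory element, and CCAAT, the NF-Y box, on either strand, so that CCAAT on the opposite strand reads ATTGG.
Cyp51: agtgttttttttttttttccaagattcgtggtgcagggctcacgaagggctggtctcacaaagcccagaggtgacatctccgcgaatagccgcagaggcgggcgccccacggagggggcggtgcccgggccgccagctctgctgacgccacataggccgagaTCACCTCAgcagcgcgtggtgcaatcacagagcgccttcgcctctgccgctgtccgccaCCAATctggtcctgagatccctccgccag
Insig1: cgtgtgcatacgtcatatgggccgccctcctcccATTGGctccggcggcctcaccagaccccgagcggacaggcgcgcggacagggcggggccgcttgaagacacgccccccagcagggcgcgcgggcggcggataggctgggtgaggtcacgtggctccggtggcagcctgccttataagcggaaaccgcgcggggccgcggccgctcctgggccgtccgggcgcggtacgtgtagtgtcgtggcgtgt
Lss: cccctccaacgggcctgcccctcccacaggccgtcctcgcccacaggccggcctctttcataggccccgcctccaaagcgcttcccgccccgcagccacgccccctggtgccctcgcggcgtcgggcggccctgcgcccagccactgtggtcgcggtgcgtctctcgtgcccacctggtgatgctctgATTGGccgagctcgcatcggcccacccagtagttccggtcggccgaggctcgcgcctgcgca
Idi1: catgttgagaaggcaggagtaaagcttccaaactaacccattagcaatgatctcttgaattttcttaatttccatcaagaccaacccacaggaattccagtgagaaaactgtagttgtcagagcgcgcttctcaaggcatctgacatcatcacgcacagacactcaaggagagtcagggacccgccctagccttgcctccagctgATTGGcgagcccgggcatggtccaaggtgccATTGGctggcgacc
TCACCNCA, the only form of the sterol regulatory element searched, occurred in the window of Cyp51 and in no other of these 4. There it read TCACCTCA, from 88 to 81 bases before the start. Among all 32851 promoter windows of the same length, 3.61% held TCACCNCA. CCAAT occurred in all 4 windows and in 33.8% of all windows, and GGGCGG, the Sp1 box, in all 4 and in 32.7%. No matches of these 3 motifs overlapped within a window. RefSeq also listed Hmgcs1, whose window held TCACCCCA from 137 to 130 bases before the start. The motifs were chosen after the values were seen, and a match describes letters and not a bound site. Other forms of the element and bases outside these windows were not searched, so a missing match does not show that a gene lacks the element.

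The second question was whether loss of Tmem120a in adipocytes moved the genes. None of the 7 was called in any genotype comparison by edgeR, DESeq2 or limma. Within a diet edgeR and limma did not call Tmem120a itself either, while DESeq2 did. On LFD the log2 fold changes of knockout over control ran from -0.10 for Insig1 to 0.14 for Sqle, with no unadjusted p (edgeR) under 0.05, where 0.00636% of all 15717 genes were called and 1.4% did not overlap. On HFD they ran from -0.28 for Lss to 0.52 for Insig1, with 1 gene at an unadjusted p under 0.05, where 0.00657% of 15228 genes were called and 0.69% did not overlap. That gene was Fdft1, at 0.35 ± 0.11 (edgeR adjusted p = 0.808), with 18.8 ± 3.03 TPM in controls against 24.0 ± 3.09 TPM in knockouts (SD, n = 5) and ranges that overlapped. On HFD Insig1 averaged 329 ± 126 TPM in controls against 472 ± 139 TPM in knockouts, at 0.52 ± 0.28 (edgeR adjusted p = 0.999), with an approximate 95% interval from -0.04 to 1.07. Lss stood at -0.51 without knockout HFD replicate 21, which lay in the control range of Tmem120a, and at -0.13 without control HFD replicate 11. For no gene did the genotypes separate without overlap on either diet. Over both diets the values ran from -0.12 for Lss to 0.20 for Insig1, with no unadjusted p under 0.05, where 0.0385% of genes were called.

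The difference between both diet responses was tested directly as an interaction. None of the 7 genes was called, by edgeR, DESeq2 or limma, and 1 had an unadjusted p (edgeR) under 0.05. Across all 15574 genes, 0% were called by edgeR, with 560 at an unadjusted p under 0.05, while DESeq2 called 14 and limma 0. The largest estimates belonged to Insig1, whose response was 0.59 ± 0.42 greater in knockout mice (edgeR adjusted p = 0.9999, approximate 95% interval from -0.23 to 1.42) and fell to 0.31 without control LFD replicate 4, and Fdft1, at 0.40 ± 0.18 (unadjusted p = 0.0346 by edgeR, adjusted p = 0.9999). Cyp51 had an estimate of -0.02 ± 0.30. That Insig1 passed the test in knockout mice and Lss in control mice therefore does not show that genotypes differ in their response.

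The rest of the pathway was read from longer lists of genes, chosen with earlier results of these data known. Of 22 listed synthesis genes 21 were tested, and over both genotypes 9 rose on HFD and none fell, with a median log2 fold change of 0.41. Over all genes tested, 12.5% were called higher and 12.7% lower. Sc5d, the sterol desaturase of a late step, rose by 0.79 ± 0.14 (edgeR adjusted p = 0.00032), and Hsd17b7, which reduces sterol ketones, by 0.86 ± 0.18 (edgeR adjusted p = 0.00209). Sc4mol, the sterol methyl oxidase (0.47 ± 0.15), Nsdhl, which removes the carboxyl group it leaves (0.41 ± 0.16), and Pmvk, phosphomevalonate kinase (0.57 ± 0.23), also rose, with Lss and Idi1. Within knockout mice 5 synthesis genes rose and within control mice 3 (4.55% and 4.42% of all genes were called higher), and none fell. No synthesis gene was called in the interaction by edgeR, DESeq2 or limma, with 1 at an unadjusted p (edgeR) under 0.05. The plot of log2 fold changes along the pathway sets these genes side by side.

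**Figure D2:**
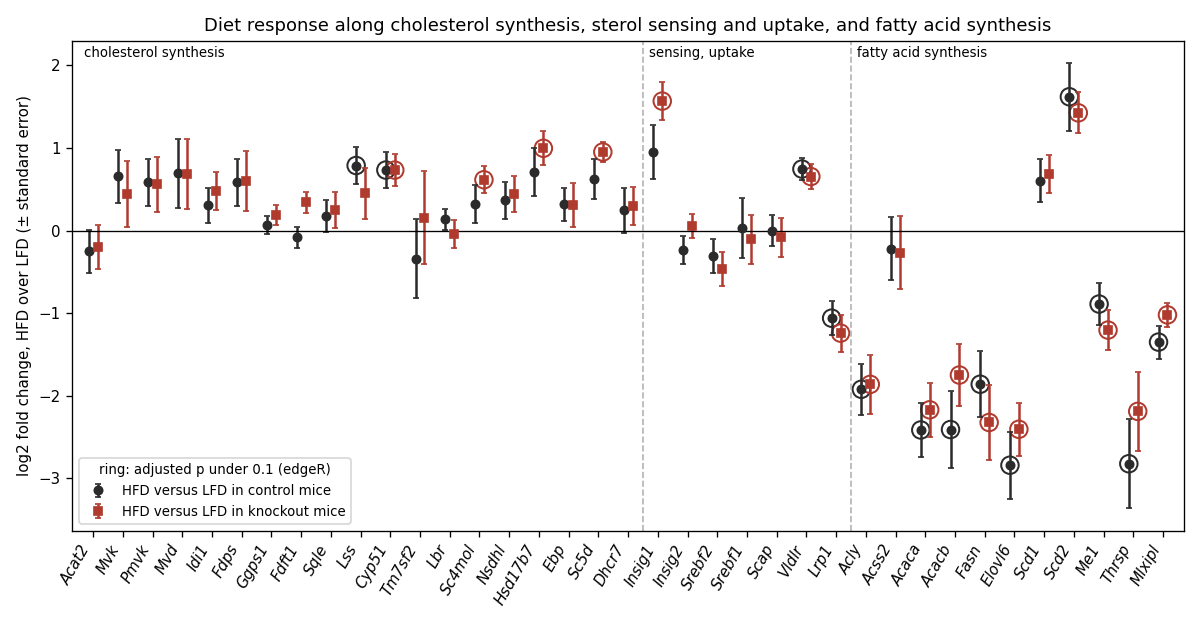
Log2 fold change of HFD over LFD (edgeR, ± SE) in control mice (black circles) and knockout mice (red squares), for selected synthesis genes in pathway order, sensing and uptake genes, and fatty acid synthesis genes; rings mark an adjusted p under 0.1. Most sterol genes lie above 0 (Fdft1 in control mice at -0.08, positive with limma on TPM) and most fatty acid synthesis genes below it, Fasn at -1.86 and -2.32.

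Of the 14 sterol sensing genes 13 were tested, and over both genotypes 3 rose (Insig1, Nr1h3 and Faf2) and 1 fell (Srebf2), with a median of -0.03. Over all genes tested 12.5% were called higher and 12.7% lower, so these counts lie near the background. Srebf2 fell by 0.38 on the log2 scale (SE 0.15, edgeR adjusted p = 0.0841), from 2.89 ± 0.666 to 2.67 ± 0.809 TPM in control and from 3.61 ± 1.02 to 2.78 ± 0.849 TPM in knockout mice (SD, n = 5). Srebf1 (-0.04 ± 0.25), Scap (-0.04 ± 0.16), Insig2 (-0.09 ± 0.11), the second INSIG gene, and Mylip (0.23 ± 0.10), which encodes a ubiquitin ligase of lipoprotein receptors, did not pass the test (edgeR adjusted p of at least 0.125). Insig2 thus stood at -0.09 where Insig1 stood at 1.26, a difference between genes that was not tested. Nr1h3, the oxysterol receptor LXR alpha, rose by 0.49 ± 0.16 (edgeR adjusted p = 0.0337), and Faf2, which takes part in INSIG1 breakdown, by 0.30 ± 0.06 (adjusted p = 0.00118).

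Uptake was read in 13 genes, of which 4 rose over both genotypes and 1 fell, with a median of 0.19, again beside 12.5% and 12.7% of all genes. Values are given for 3 of the 4 that rose. Vldlr, the VLDL receptor, rose by 0.70 ± 0.10 (edgeR adjusted p = 3.68e-05), from 33.3 ± 4.55 to 73.8 ± 7.01 TPM in control mice and from 27.5 ± 4.05 to 56.1 ± 17.1 TPM in knockout mice (SD, n = 5). The lysosomal genes Lipa, which frees cholesterol from its esters (0.49 ± 0.13), and Npc2, which carries it to the lysosomal membrane (0.40 ± 0.15), rose too. Lrp1, a large receptor that clears lipoprotein remnants, fell by 1.15 on the log2 scale (SE 0.16, edgeR adjusted p = 3.81e-05). Stard4, a cytosolic sterol carrier, measured -0.15 ± 0.18 (edgeR adjusted p = 0.602).

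Of 9 efflux and storage genes 7 were tested, and over both genotypes 3 rose and none fell, with a median of 0.20, beside 12.5% higher and 12.7% lower of all genes. The 3 that rose were Cav1, the caveolar coat protein (0.86 ± 0.14, edgeR adjusted p = 0.000166), Abcg1, an exporter of cholesterol to HDL (0.53 ± 0.13, adjusted p = 0.00466), and Apoe, the lipoprotein ligand (0.82 ± 0.21, adjusted p = 0.00753). Abca1, the other main exporter, measured -0.08 ± 0.09 (edgeR adjusted p = 0.606). No gene of the synthesis, sensing, uptake or efflux lists was called between genotypes on either diet or over both by edgeR, DESeq2 or limma. At an unadjusted p under 0.05 (edgeR) there were 0, 0, 0 and 2 such genes on LFD, 1, 0, 1 and 0 on HFD, and 0, 1, 2 and 0 over both diets, in that order of lists.

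Fatty acid synthesis genes, which share SREBP control and acetyl-CoA with the sterol pathway, went the other way. Of 11 such genes 8 fell and 2 rose on HFD over both genotypes, with a median of -1.89 against 0.41 for the synthesis list of sterols. Of all genes tested, 12.7% were called lower and 12.5% higher. Fasn, fatty acid synthase, fell by 2.09 on the log2 scale (SE 0.32, edgeR adjusted p = 0.000101), from 739 ± 182 to 227 ± 105 TPM in control mice (SD, n = 5). Scd1 (0.65 ± 0.15) and Scd2 (1.53 ± 0.25), which desaturate fatty acids, rose.

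Between libraries of one group, by contrast, the sterol genes moved with each other and with fatty acid synthesis. After each group mean was removed from log2(TPM + 1), all 21 pairs among the 7 genes had a positive Pearson correlation over the 20 libraries, from 0.24 (Fdft1 and Cyp51) to 0.84 (Fdps and Lss), with a median of 0.65. These libraries differed in depth and in the marker sums of cell types, so the correlations are given as a description. Of 15567 genes ranked by correlation with the mean of the 7, whose median r was 0.13, the 10 highest outside the 7 were Nsdhl (0.93), Acly (0.86), Me1 (0.86), Dhcr7 (0.86), Pmvk (0.85), Fasn (0.84), Ppp2r5a (0.83), Unc119 (0.83), Mid1ip1 (0.83) and Ints7 (0.83). Nsdhl, Dhcr7 and Pmvk belong to cholesterol synthesis, while Acly, Me1 and Fasn supply or build fatty acids. Insig2 stood at rank 8887 (0.07).

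The relation to Fasn is given within each diet over 10 libraries, as a description with no test, since Fasn was picked for its correlation with these genes in the same libraries. Again each group mean was first removed from log2(TPM + 1). On LFD Lss had Pearson r = 0.96 and Spearman rho = 0.98, and Fdps r = 0.92 and rho = 0.89. Without the 2 libraries farthest from the median of Fasn, r was 0.96 for Lss and 0.85 for Fdps. Cyp51 (r = 0.20, rho = 0.12) and Insig1 (r = 0.10, rho = -0.15) had lower values on LFD. On HFD r ran from 0.57 for Cyp51 to 0.88 for Fdps and rho from 0.59 to 0.94, and without the 2 farthest libraries r ran from 0.51 to 0.75. The plot against Fasn shows both diets.

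**Figure D3:**
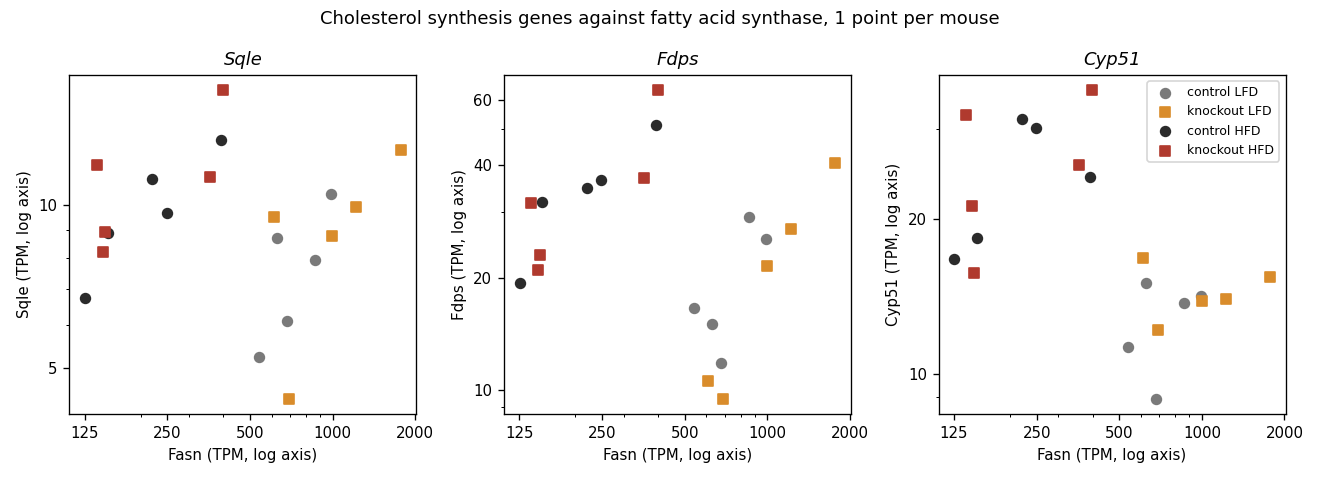
TPM of Sqle, Fdps and Cyp51 against TPM of Fasn, both axes logarithmic, 1 point per library, circles for control and squares for knockout mice. The LFD libraries (grey and orange) lie at 540.4 TPM of Fasn and above and the HFD libraries (black and red) at 399 TPM and below. With group means removed from log2(TPM + 1), which the plotted points do not show, r within LFD and HFD was 0.92 and 0.88 for Fdps. For Cyp51 on LFD it was 0.20.

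Values for Idi1 and Lss carry the limits given above, drawn in the plot of Idi1 beside its pseudogene and of Lss by transcript class. Idi1 had means of 10.2, 11.2, 14.9 and 17.4 TPM and Gm13502 of 35.6, 46.7, 59.1 and 58.0 TPM in control LFD, knockout LFD, control HFD and knockout HFD mice. Retained-intron transcripts of Lss summed to 6.06, 7.92, 14.8 and 11.2 TPM in the same groups, and coding transcripts to 2.07, 1.97, 2.28 and 3.24 TPM. The group with the highest mean sum for Lss, control HFD, was therefore not the one with the highest mean of coding transcripts, knockout HFD. These 2 groups overlapped in both coding transcripts. Lss-001 averaged 2.26 ± 1.97 TPM in control HFD and 2.29 ± 2.02 TPM in knockout HFD mice. Lss-007 averaged 0.02 ± 0.05 and 0.95 ± 0.91 TPM (SD, exact permutation test p = 0.167). With coding transcripts alone edgeR did not call Lss between genotypes on HFD (log2 fold change 0.0233).

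**Figure D4:**
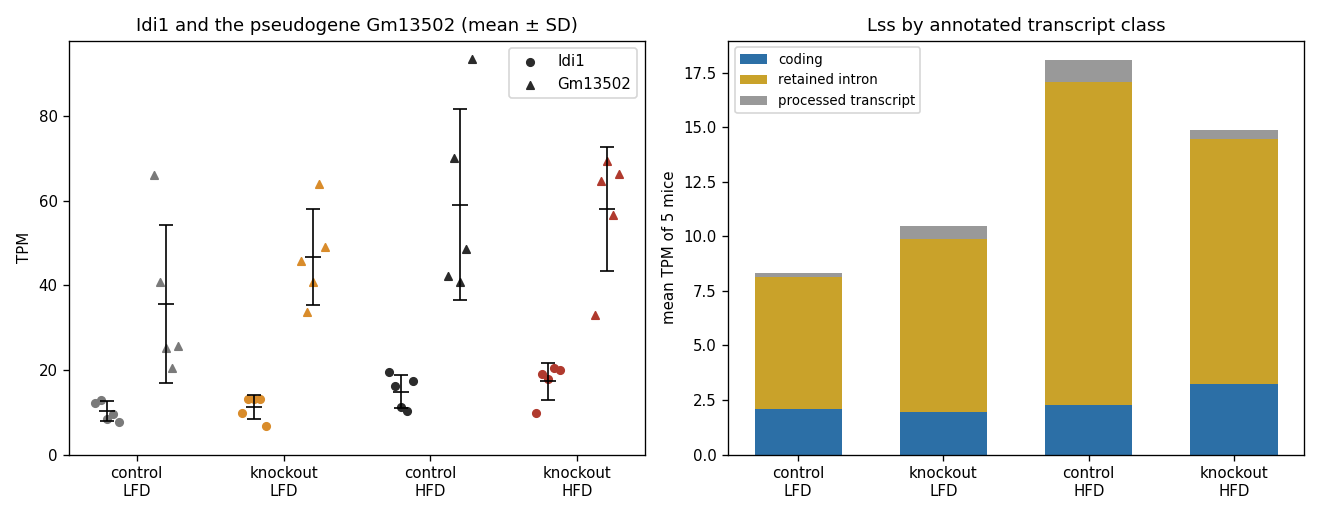
Left, TPM of Idi1 (circles) and Gm13502 (triangles) by group, 1 point per library with mean ± SD. Right, mean TPM of Lss over 5 libraries, stacked by annotated transcript class; retained-intron transcripts make up most of each bar, 14.8 TPM of the control HFD bar against 2.28 TPM of coding transcripts.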

How the data were processed

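Total RNA was made into libraries with a stranded kit that keeps non-coding and unspliced RNA. The authors assigned read pairs to Ensembl NCBIM37 (mm9) transcripts with Salmon 0.13.1 and deposited its estimated counts, not normalised between libraries. The TPM values come from that Salmon step of the authors too, corrected for transcript length and scaled to a fixed total. STAR 2.5.3 is also named in the submitters' processing notes. Transcripts were summed per gene with GENCODE vM1, which held 94334 of the 96533, so that 0.377% to 0.581% of the counts of a library stayed out. Hmgcs1 was not analysed here.

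Rounded gene sums were tested with edgeR 4.0.16 (quasi-likelihood, legacy method, TMM) on genes with a mean TPM of 0.5 or more over the libraries compared, called at a Benjamini-Hochberg adjusted p under 0.1, and checked on simulated data. Alternatives were DESeq2 1.42.0, limma 3.58.1 on log2(TPM + 1) or log2(TPM + 0.5), other scaling, no filter, length offsets, one fit of 4 groups and each library left out. Chosen after seeing the data were the newer quasi-likelihood method, Idi1 with Gm13502, coding transcripts alone, and leaving out 2 knockout libraries. Permutation tests between groups of 5 were exact and two-sided (smallest p 0.00794). Named genes were the members, 11 listed sterol genes (some are not reported here), called genes of each list (at most 10, applied per list, with 3 printed for fatty acid synthesis, chosen after their values were seen) and the 10 genes most like the members. The members and all lists were chosen with earlier results of these data known. Sequences came from RefSeq promoters (GRCm38.p6), searched with Python 3.11.15.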

Additional observations from a re-analysis of the deposited data

Results flagged for a closer look

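A library was picked out where its distance to the nearest of the other 4 of its group, divided by the whole range of the group, exceeded 0.71 (Dixon's 95% value for 5), which happened in 4 of 76 groups tested. Chance picks out about 1 in 20. Idi1 measured 9.74 TPM in knockout HFD replicate 17, against 17.8 to 20.4 TPM in the other 4. Fdft1 measured 24.5 TPM in knockout LFD replicate 7, against 15.1 to 17.2 TPM in the other 4. Stard4 measured 8.45 TPM in knockout LFD replicate 9, against 3.45 to 4.07 TPM, and 6.82 TPM in knockout HFD replicate 21, against 3.50 to 4.46 TPM. Knockout LFD replicate 7 also carried the most Idi1, Fdps, Sqle, Lss and Insig1 of its group, thus of 6 of the 7 genes, and 74.0 TPM of Tmem120a. In the mean over the 7 genes of standardised deviations from the group mean, this library (1.29 SD) and knockout HFD replicate 21 (1.23 SD), the 2 knockout libraries with Tmem120a in the control range, were the highest of all 20. The part that Tmem120a level plays in this was not tested.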

How the results depend on the processing

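Without 1 library at a time, edgeR called between 0 and 4 of the 7 genes in control mice, 1 and 3 in knockout mice and 3 and 5 over both genotypes on HFD against LFD, and 0 in each genotype comparison and in the interaction. Of the longer synthesis list it called 6 to 12 genes over both genotypes. Coding transcripts alone left 1 gene called in control mice (Cyp51), and leaving out knockout LFD replicate 7 with knockout HFD replicate 21 left 1 in knockout mice (Insig1). The other alternatives gave 2 to 3 genes in control mice and 2 in knockout mice, and over both genotypes the range of all alternatives was 3 to 6. Signs turned for Fdft1 on HFD in control mice with limma, to 0.12 with a pseudocount of 1 and 0.12 with 0.5, and for Lss with coding transcripts alone, to 0.0233 between genotypes on HFD and 0.40 in the interaction. None of these values was called. The limma fit on TPM raised the share of calls that were higher on HFD from 47.4% to 83.7% in control mice, from 48.4% to 65.8% in knockout mice and from 49.7% to 75.0% over both genotypes. Over all genes, calls in control mice numbered 1427 with edgeR and 2205 with DESeq2, and in knockout mice 1476 and 2247. Without replicates 7 and 21 edgeR made 768 in knockout mice, of which 34.4% were higher. Between genotypes on HFD edgeR called 1 gene, DESeq2 100 and limma 3, or 4 with a pseudocount of 0.5. There edgeR called 26 without a filter, 34 with the newer method, 58 without replicate 21, 5 with length offsets and 3 in one fit of 4 groups. On LFD edgeR called 1 gene, or 2 in one fit of 4 groups, DESeq2 17 and limma 2, and over both diets edgeR called 6, or 2 with length offsets, and DESeq2 32. The cause of these changes was not tested. No paired analysis was possible because the groups share no replicate numbers. Each of the 7 genes had at least 582 estimated counts in each library, while reads shared with a pseudogene limit Idi1 and transcript assignment limits Lss.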
